A study of Mus musculus with 6 samples.

Results

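The 10 genes described here are the 3 chains of complement C1q (C1qa, C1qb and C1qc) and 7 genes used as markers of leucocytes, Tyrobp, Fcer1g, Laptm5, Cd53, Ptprc, Csf1r and Aif1. Every array probe whose platform annotation gives 1 of these symbols was taken, which gave 17 of the 45281 probes and left no gene of the 10 without one. The array names 19057 genes in all. The lens samples came from mice at postnatal day 30 whose strain is given as a mix of C57BL/6J with C3A.Blia. The 3 control samples were heterozygous for Tdrd7, so they too carried a mutated allele, and the 3 others were Tdrd7 null. Tdrd7 is a component of RNA granules needed for lens clarity, and the design asks which lens transcripts differ when it is absent. The labels do not give the nature of the allele, the sex of the mice, or whether each sample was 1 animal or a pool, so every p-value rests on sample-to-sample spread that could be technical.

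C1q is the recognition unit of the classical complement pathway. Its A, B and C chains assemble into a bouquet of collagen-like stems with globular heads that bind antibody complexes and dying cells. Macrophages and their relatives, microglia included, are a source of C1q. Tyrobp (DAP12) and Fcer1g (the common gamma chain of Fc receptors) are small adaptors that carry an activation motif, the ITAM, into the cell for receptors that lack one. The lens itself has no blood vessels and is not a usual site of leucocytes.

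Values are log2 intensities after background correction and quantile normalization, in which a probe with no signal lies near 4 to 5, and a probe was called detected on an array at a detection p under 0.05. Levels of different probes cannot be set against each other. The arrays are numbered as in the deposited raw table, heterozygous arrays 1 to 3 and null arrays 4 to 6. Between 12655 (heterozygous array 2) and 16204 (null array 5) probes were detected per array, and these 2 arrays stood apart: their best correlation with any other array over the probes tested was 0.947 and 0.963, against at least 0.982 for the others. Tdrd7 was at 13.72 to 14.16 in heterozygous and at 9.59 to 10.44 in null samples, as labelled. Of the 8 lens-defining genes with a probe (crystallins, Mip, Lim2, Bfsp2, Foxe3 and Gja3), 6 were detected on all 6 arrays, while Gja3 was detected on 1 heterozygous array alone.

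The signals of C1qb, C1qc, Fcer1g, Laptm5, Cd53 and Aif1 were detected in every null lens sample and lay above those of all heterozygous samples, each on 1 probe. C1qa and Tyrobp had the same order of values but were detected on 2 of 3 null arrays. Ptprc was not detected on any array and Csf1r did not separate the groups. On the 17 probes there were 28 detections on the null arrays and 9 on the heterozygous arrays, of 51 possible in each group. The null values lay above all heterozygous values for 8 of the 17 probes, against 5.57% of all probes of the array, and below them for 0, against 6.16%. Detection on 3 of 3 null and 0 of 3 heterozygous arrays was met by 4 of the 17, those of C1qb, C1qc, Fcer1g and Aif1, against 0.305% of all probes, and the reverse by 0 of the 17, against 0.0994%. None of the 8 member probes that could be tested passed limma with Benjamini-Hochberg adjustment over all 14902 probes tested, of which 0.181% passed (0.047% higher and 0.134% lower in null lenses). At an unadjusted p under 0.05, 6 of the 8 were higher, as were 4.29% of the probes tested, where 8.72% differed in either direction. Since the filter kept some members through their null arrays alone, that count is no support. The median difference over all 17 probes, those never detected included, was 0.21 on the log2 scale, against 0.00 over all probes of the array. In whole lens RNA, more cells of a type and more RNA per cell cannot be told apart.

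**Figure D1:**
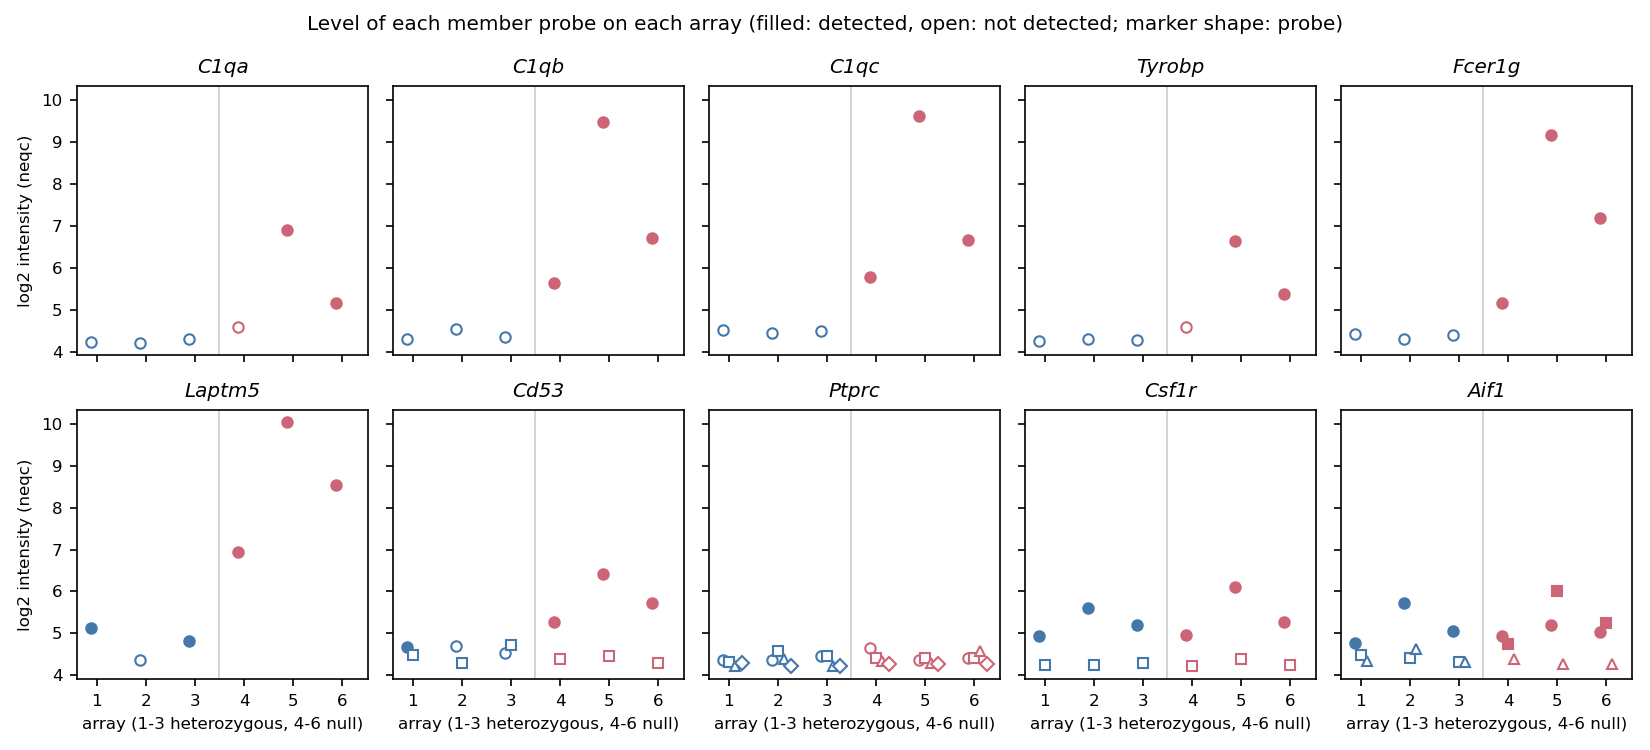
Log2 intensity (vertical axis) of each probe of the 10 genes on each array (horizontal axis), with heterozygous arrays in blue and null arrays in red. Each panel is a gene, each marker shape a probe of that gene, and filled markers are detected. The C1q chains, Tyrobp, Fcer1g and Laptm5 reach their highest value on null array 5, while the 4 Ptprc probes are open on all 6 arrays.

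The promoters of C1qb, C1qc, Fcer1g and Laptm5 are shown because these genes had the largest differences and stepped up together over the null arrays. Each sequence runs 5′ to 3′ from 250 bases before to 50 bases after the start of the gene in RefSeq, build GRCm38.p6, and capitals mark GAGGAA or its reverse complement TTCCTC, the PU box bound by the myeloid transcription factor PU.1. C1qb lies at chr4:136886151-136886450, minus strand, C1qc at chr4:136892865-136893164, minus strand, Fcer1g at chr1:171234300-171234599, minus strand, and Laptm5 at chr4:130913066-130913365, plus strand.
C1qb: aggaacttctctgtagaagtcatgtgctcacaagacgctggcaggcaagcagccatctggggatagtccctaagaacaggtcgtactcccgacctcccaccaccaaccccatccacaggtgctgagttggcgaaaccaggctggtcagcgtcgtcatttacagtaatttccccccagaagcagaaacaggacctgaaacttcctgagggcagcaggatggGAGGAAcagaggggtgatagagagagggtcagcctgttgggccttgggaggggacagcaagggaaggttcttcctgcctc
C1qc: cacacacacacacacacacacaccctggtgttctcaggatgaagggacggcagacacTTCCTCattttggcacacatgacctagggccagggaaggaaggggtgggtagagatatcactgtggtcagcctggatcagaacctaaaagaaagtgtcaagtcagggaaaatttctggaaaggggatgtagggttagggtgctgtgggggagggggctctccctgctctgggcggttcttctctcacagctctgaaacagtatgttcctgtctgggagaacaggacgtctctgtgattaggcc
Fcer1g: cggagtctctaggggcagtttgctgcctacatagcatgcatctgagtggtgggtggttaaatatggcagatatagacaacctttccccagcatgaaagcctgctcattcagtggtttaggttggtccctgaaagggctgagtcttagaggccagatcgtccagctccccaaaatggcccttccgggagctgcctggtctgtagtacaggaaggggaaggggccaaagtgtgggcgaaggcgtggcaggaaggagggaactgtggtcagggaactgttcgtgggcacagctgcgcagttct
Laptm5: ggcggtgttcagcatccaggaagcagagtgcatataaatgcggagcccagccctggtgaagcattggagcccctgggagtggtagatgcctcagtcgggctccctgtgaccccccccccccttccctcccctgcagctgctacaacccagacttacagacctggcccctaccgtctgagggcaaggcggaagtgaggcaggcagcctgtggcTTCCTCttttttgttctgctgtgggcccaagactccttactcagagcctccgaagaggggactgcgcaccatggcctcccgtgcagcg
The C1qb promoter holds GAGGAA from base -30, that of Laptm5 holds TTCCTC from base -38 and that of C1qc TTCCTC from base -193, counted from the start of the gene, and that of Fcer1g holds neither. Of the 10 genes, 7 had a promoter in the RefSeq table, with 8 promoters in all, of which 6 hold the motif on either strand. The motif occurs in 28.3% of the 32851 promoters of that table. A match of these letters is a description and does not show that the factor binds there. The C1q genes lie side by side in GRCm38.p6 in the order C1qb, C1qc, C1qa with no other coding gene between them, and they and Laptm5 are on chromosome 4, as is Tdrd7. Fcer1g is on chromosome 1, Cd53 on 3, Tyrobp on 7 and Aif1 on 17, so genes off chromosome 4 were also among those whose groups did not overlap.

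C1qb and C1qc, which encode the B and C chains, followed each other closely. C1qb was at 4.31, 4.53 and 4.34 on heterozygous arrays 1, 2 and 3 and at 5.63, 9.48 and 6.72 on null arrays 4, 5 and 6. C1qc was at 4.52, 4.45 and 4.50 on the heterozygous and at 5.79, 9.63 and 6.67 on the null arrays. Both probes were detected in every null and no heterozygous sample, and null array 5 was far above the other null arrays for both. In deposited intensity units, C1qb was at 55.1, 62.8 and 64.0 in heterozygous and 94.7, 987 and 153 in null samples. Relative to their own heterozygous means, C1qb and C1qc lay 1.24 and 1.30 higher on null array 4, 5.09 and 5.14 on null array 5, and 2.33 and 2.18 on null array 6.

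Because neither probe was detected in heterozygous samples, only bounds hold for the size. For a bound, each heterozygous array was given the dimmest signal of any detected probe there, or the probe's own value if brighter, and the null mean was divided by the mean of these. By it C1qb was at least 5.60-fold and C1qc at least 5.94-fold higher in null lenses. The fitted differences were 2.88 ± 0.77 (SE) for C1qb, with means of 7.28 ± 1.98 (SD, n = 3) against 4.39 ± 0.12 (n = 3), and 2.87 ± 0.78 for C1qc, with 7.36 ± 2.01 against 4.49 ± 0.03. Neither passed in limma (adjusted p = 0.268 and 0.274). Without null array 5 the bounds were 2.61-fold and 2.71-fold, and without null array 4 they were 9.90-fold and 10.2-fold. With heterozygous array 2 and null array 5 both left out, both genes passed (adjusted p = 0.0287 and 0.0241).

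C1qa, the A chain, had a dimmer probe that showed the same order. It was at 4.22, 4.2 and 4.30 in heterozygous and at 4.58, 6.90 and 5.15 in null samples, and it was detected on null arrays 5 and 6 alone. The groups did not overlap, but null array 4 was not above background for it, with an intensity of 65.5 where the dimmest detected probe of that array had 68.1. C1qa fell short of the 3 arrays with detection that the test required. Its bound was 1.68-fold, and 1.05-fold without null array 5.

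Fcer1g and Tyrobp, the ITAM adaptors, were also undetected on all heterozygous arrays. Fcer1g was at 4.42, 4.30 and 4.39 in heterozygous and at 5.17, 9.17 and 7.19 in null samples. All 3 null values were detected and lay above the heterozygous ones, and Fcer1g was at least 5.22-fold higher, with a fitted difference of 2.81 ± 0.78 that did not pass in limma (adjusted p = 0.285). Without null array 5 the bound was 2.62-fold, and without null array 4 it was 10.5-fold and the gene passed (adjusted p = 0.0406). Tyrobp was at 4.24, 4.30 and 4.27 in heterozygous and at 4.58, 6.64 and 5.38 in null samples. Like C1qa it was detected on null arrays 5 and 6 alone and was not tested. The bound for Tyrobp was 1.67-fold, and 1.14-fold without null array 5.

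Laptm5, a lysosomal membrane protein of blood cells, had the largest difference of the 17 probes. It was at 5.12, 4.36 and 4.82 in heterozygous and at 6.94, 10.05 and 8.54 in null samples, or 81.8, 58.4 and 75.1 against 177, 1417 and 435 in deposited intensity. The lowest null value lay 1.82 above the highest heterozygous value, the widest gap of the 17. Laptm5 differed by 3.74 ± 0.63 (8.51 ± 1.56 against 4.77 ± 0.38, SD, n = 3 each) and did not pass in limma (adjusted p = 0.0634). It was detected on 2 of 3 heterozygous arrays, so the fold of 13.4 is uncertain. Leaving out null array 4 gave 4.53 (adjusted p = 0.0138) and leaving out null array 5 gave 2.97. Laptm5 also passed with array weights (adjusted p = 0.00846), which give arrays that depart from the fit less influence.

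Cd53, a tetraspanin of the leucocyte surface, was measured by 2 probes that disagreed. The first was at 4.68, 4.69 and 4.54 in heterozygous and at 5.28, 6.41 and 5.72 in null samples, detected on 1 of 3 and 3 of 3 arrays. The groups did not overlap on it, and the difference of 1.17 ± 0.29 did not pass in limma (adjusted p = 0.218, and 0.0413 with array weights). The second Cd53 probe was detected on no array and stayed between 4.28 and 4.73 on all 6. Where the probes lie in the transcript was not analysed here.

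Aif1, which encodes the actin-binding protein IBA1 used to stain microglia and macrophages, had 3 probes with 3 different patterns. Its second probe by brightness was at 4.48, 4.41 and 4.31 in heterozygous and at 4.75, 6.02 and 5.24 in null samples, detected on 0 of 3 and 3 of 3 arrays. Its bound was 1.46-fold, with a fitted difference of 0.94 ± 0.31 that did not pass in limma (adjusted p = 0.397). The brightest Aif1 probe was detected on all 6 arrays, at 4.78, 5.73 and 5.05 in heterozygous and 4.94, 5.20 and 5.03 in null samples, a difference of -0.13 ± 0.27 (limma, adjusted p = 0.932). On it heterozygous array 2 was the highest of the 6 after normalization. In deposited raw intensity it was instead 70.9, 78.1 and 79.0 in heterozygous and 73.5, 98.8 and 80.0 in null samples, with null array 5 the highest. In the authors' rescaled intensities heterozygous replicate 2 was the highest, with 72.8, 100 and 78.8 in heterozygous and 76.5, 83.1 and 78.4 in null samples. The sign of the difference of -0.13 was opposite after scaling arrays to 1 median (0.16) and without heterozygous array 2 (0.14). The third Aif1 probe was detected on no array.

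Csf1r, the receptor for the macrophage growth factors CSF1 and IL-34, did not separate the groups. Its brighter probe was detected on all 6 arrays, at 4.94, 5.60 and 5.19 in heterozygous and at 4.97, 6.11 and 5.28 in null samples. Null array 5 was the highest, and the other 2 null values lay within the heterozygous range. The difference was 0.21 ± 0.32 (limma, adjusted p = 0.898) and turned to -0.12 without null array 5. The other Csf1r probe was detected on no array, at 4.22 to 4.39.

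Ptprc encodes CD45, the surface phosphatase that defines leucocytes as a class. Its 4 probes gave 0 detections on the 6 arrays, with log2 intensities from 4.21 to 4.66. All 4 probes overlapped between the groups, and their differences in a fit with no filter on dim probes ran from -0.05 to 0.13. A probe that is not well above background on either side gives no fold, so the level of Ptprc could not be compared at this signal.

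**Figure D2:**
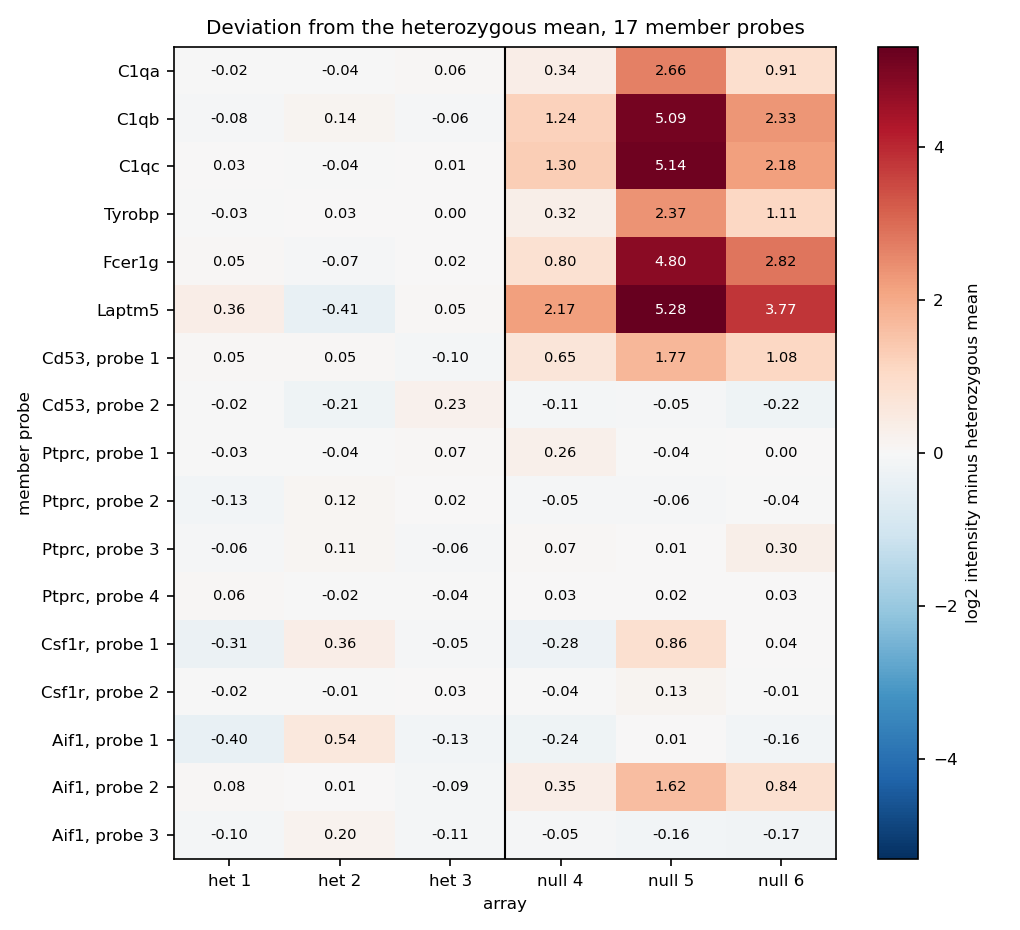
Log2 intensity of the 17 probes (rows) on the 6 arrays (columns) minus the mean of the 3 heterozygous arrays, as colour and as a number. Laptm5, C1qc, C1qb and Fcer1g lie from 4.80 to 5.28 above that mean on null array 5 and from 0.80 to 2.17 above it on null array 4. The 2nd Cd53 probe, the 4 Ptprc probes, the 2nd Csf1r probe and the 3rd Aif1 probe, which were detected on no array, stay within 0.30 of it.

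Members that separated the groups shared an order over the null arrays. For all 8 probes whose groups did not overlap, null array 5 was the highest, null array 6 the next and null array 4 the lowest. That order was met by 17% of all probes of the array, by 1.42% together with null values above all heterozygous ones, and by 25.5% of the 2522 probes whose null values lay above all heterozygous values. The mean of all 17 member probes exceeded that of the heterozygous samples by 0.40, 1.73 and 0.87 on null arrays 4, 5 and 6, and deviated from it by -0.03 to 0.04 on the heterozygous arrays. For the 8 probes detected on all 3 null arrays it was 0.75, 3.07 and 1.61, a profile used below only to find similar genes, since detection on the null arrays chose them.

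The size of the steps differed between genes. From null array 6 to null array 5 the log2 step was 2.76 for C1qb and 2.95 for C1qc, but 1.98 for Fcer1g and 1.51 for Laptm5. From null array 4 to null array 6 it was 1.09 for C1qb and 0.88 for C1qc, against 2.02 for Fcer1g and 1.60 for Laptm5. C1qb and C1qc thus took most of their spread from null array 5, and the other pair spread more evenly. The dimmer C1qa, not above background on null array 4, had a step of 1.75 from null array 6 to null array 5. For the 4 bright genes the same contrast held with an offset of 50, after median scaling and with no background correction, where the step to null array 5 was from 2.34 to 3.30 for C1qb and C1qc and from 1.40 to 2.32 for Fcer1g and Laptm5. Each null array is 1 sample, so this contrast has no replicate.

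**Figure D3:**
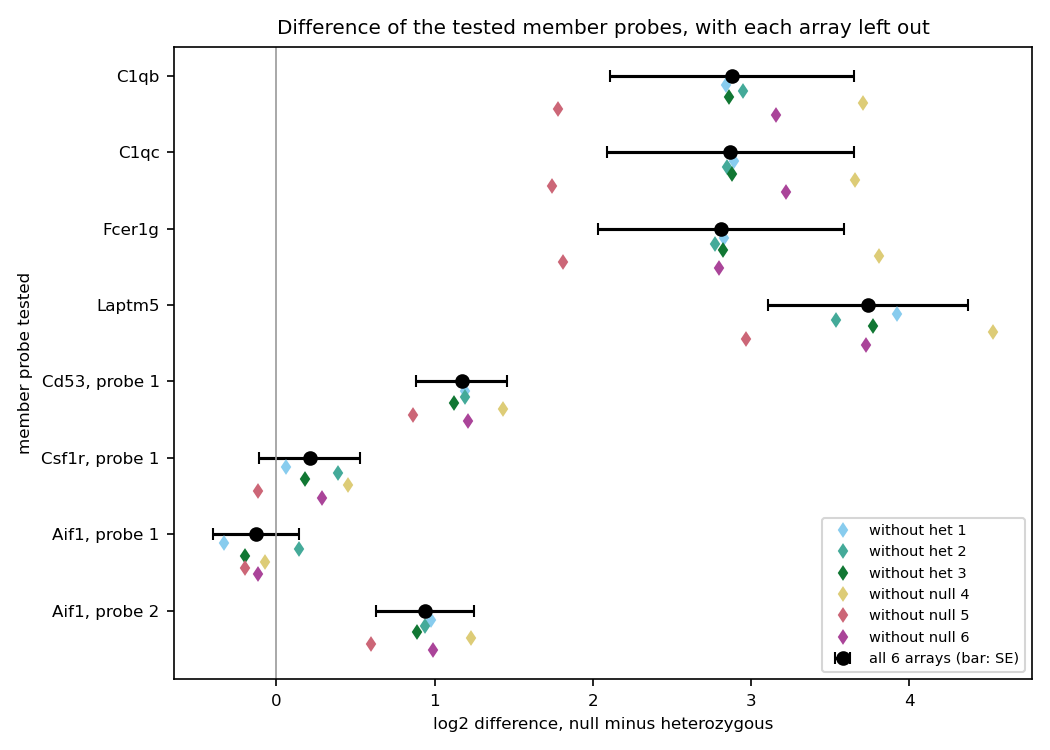
Log2 difference, null minus heterozygous, of the 8 probes tested (black, bars are SE) and the same with each array left out in turn (coloured). Leaving out null array 5 lowers C1qb from 2.88 to 1.78 and Laptm5 from 3.74 to 2.97, and leaving out null array 4 raises them to 3.71 and 4.53, while Csf1r and the brightest Aif1 probe lie on both sides of 0.

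Among 12926 tested probes with a gene name, those nearest to the mean profile of those 8 probes over the 6 arrays were Apobec1, a cytidine deaminase, and Bcl2a1d, of the BCL2 family. Nearness was the Euclidean distance between log2 deviations from the heterozygous mean. It was 0.21 for Apobec1, which lay 0.84, 3.25 and 1.66 higher on null arrays 4, 5 and 6, and 0.36 for Bcl2a1d, whose probe may also read its close copies. The next were the membrane protein Emp3, Ms4a7, Emp1, Mpeg1 (a pore-forming protein of phagocytes), the IgG receptor Fcgr3 and the lysosomal transporter Slc15a3, at 0.53 to 0.74. The members themselves lay 1.61 to 4.25 from the mean of the other members, since they differ in size. None of these 8 genes passed in limma (adjusted p from 0.145 to 0.380).

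Several receptors of the ITAM pathway were detected on null arrays alone. Of 28 genes with a probe, 10 were tested and 0 passed in limma in either direction. At an unadjusted p under 0.05, 5 were higher and 0 lower, where 4.29% of all probes tested were higher. Among these 5 were 4 genes detected on 3 null and 0 heterozygous arrays, Trem2, Clec7a, Fcgr3 and the inhibitory Fc receptor Fcgr2b. They could be tested only because null samples showed signal, which leaves the 5 without weight as evidence. The null values of 9 genes lay above all heterozygous values, against 5.57% of all probes. Some of the 9 were dim: Trem3 was detected on no array, and Btk and Blnk on 1 null array each. Trem2, a lipid receptor that signals through Tyrobp, was detected in all 3 null and no heterozygous sample, and its lower bound was 3.68-fold (adjusted p = 0.298). The bound was 1.93-fold for Fcgr3, which signals through Fcer1g (adjusted p = 0.380), and 1.56-fold for Clec7a, the beta-glucan receptor Dectin-1 (adjusted p = 0.170). Lat2, a scaffold for kinases acting on such receptors, differed by 1.68 ± 0.30 (adjusted p = 0.0771) and was detected on 1 of 3 heterozygous arrays. Trem2 lay 0.72, 3.85 and 1.98 above its heterozygous mean on null arrays 4, 5 and 6, and Fcgr3 0.43, 2.57 and 1.22.

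Complement genes beyond C1q were mostly undetected or did not differ past the test. Of 32 with a probe, 15 were detected on no array and 12 were tested, with 0 past the threshold in either direction and 1 at an unadjusted p under 0.05. That one was Cfp, properdin, which stabilizes the alternative pathway convertase. Cfp had a mean of 6.11 ± 0.66 (SD, n = 3) in heterozygous samples and 8.44 ± 0.73 in null samples, which differed by 2.33 ± 0.42 (limma, adjusted p = 0.0775), and it was detected on all 6 arrays. Cd93, a surface glycoprotein once held to be a C1q receptor, had a bound of 1.09-fold (adjusted p = 0.621). Null values lay above all heterozygous values for 4 of the 32 genes and below for 0, against 5.57% and 6.16% of all probes. The 4 were Cfp, Cd93, C2 and Mbl1. C2 was detected on 2 null arrays alone, with a bound of 1.23-fold, and Mbl1 on no array, and neither was tested.

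No gene of the CSF1 axis or regulator of myeloid genes that was tested was higher past the test. Null values lay above all heterozygous values for 2 of 16 genes with a probe and below for 1, against 5.57% and 6.16% of all probes. The 2 were Irf5, detected on 2 null arrays alone with a bound of 1.16-fold, and Il34, detected on no array. Neither was tested. Of the 16 genes, 8 were detected on no array and 5 were tested, with 0 past the threshold in limma, 0 higher and 1 lower at an unadjusted p under 0.05. The 1 lower gene, the transcription factor Cebpb, differed by -1.62 ± 0.70 (adjusted p = 0.551), with values -2.73, 0.11 and -2.26 from the heterozygous mean on null arrays 4, 5 and 6. Spi1, which encodes PU.1, was detected on all 6 arrays and differed by -0.25 ± 0.29 (adjusted p = 0.866), and the cytokine receptor chain Csf2rb by -0.35 ± 0.27 (adjusted p = 0.783).

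Other genes shared by leucocytes, and genes of macrophages, were detected more widely on the null arrays. Of 29 further pan-leucocyte genes with a probe, 6 to 7 were detected on the heterozygous arrays, and 9, 25 and 14 on null arrays 4, 5 and 6. Over all 45281 probes, null array 5 also had the most detected, 16204, against 15028 and 14826 on null arrays 4 and 6. The mean deviation of the 29 genes on these null arrays was 0.06, 0.97 and 0.24. On null array 4 their summed intensity above the offset, 1803, lay within the heterozygous range of 1678 to 2157. Of the 29, 11 were tested and 0 passed in limma. At an unadjusted p under 0.05, 2 were higher and 0 lower, where 4.29% of all probes tested were higher. These 2 were the leucocyte surface proteins Cd84 (1.16 ± 0.44, limma, adjusted p = 0.492) and Cd52 (1.72 ± 0.66, adjusted p = 0.502), of which Cd52 was detected on null arrays alone and had a bound of 2.76-fold. Nckap1l, which controls actin in blood cells, differed by 0.51 ± 0.23 (adjusted p = 0.586). Of 29 macrophage and microglia markers, 7 were detected on no array, 15 were tested and 3 passed, all higher, as did 0.047% of all probes tested. Of the 15 tested, 6 had been detected on 3 null and 0 heterozygous arrays, Mmp12 among them. The filter kept these through the null arrays alone, so the counts among tested genes are no support. The 3 that passed were Gpnmb (5.56 ± 0.54, limma, adjusted p = 0.00970), Lyz1 (4.94 ± 0.74, adjusted p = 0.0455) and Mmp12 (at least 5.73-fold, adjusted p = 0.0264). Another 7 were higher at an unadjusted p under 0.05, where 4.29% of all probes tested were higher. Mpeg1 came next, with a bound of 2.70-fold (adjusted p = 0.145). The mean deviation of the macrophage list was 0.49, 1.64 and 0.93 on null arrays 4, 5 and 6, in the order of the members, and its summed intensity above the offset was 344 to 486 on heterozygous and 1405 to 9775 on null arrays. Gpnmb, Lyz1 and Lyz2 made up 66.6% to 82.9% of the sum on the null arrays, and without these 3 it was 327 to 442 on heterozygous and 469 to 1672 on null arrays. Markers of resident microglia and macrophages, picked here after their values were seen, did not all move alike. Cx3cr1 and P2ry13 were detected on no array and P2ry12 on 1, while Tmem119 differed by 0.01 ± 0.22 (limma, adjusted p = 0.992), Sall1 by -0.01 ± 0.26 (adjusted p = 0.995) and Cd163 by -0.06 ± 0.22 (adjusted p = 0.968). In contrast, Mrc1 differed by 1.13 ± 0.49 (adjusted p = 0.568) and Mertk by 0.64 ± 0.34 (adjusted p = 0.645). Adgre1 and Folr2 were detected on 2 null arrays alone. Where a gene of a list has several probes, the brightest over the 6 arrays was used.

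No marker of lymphocytes or mast cells that was tested was higher in null samples past the test. Most could not be compared at their signal: 7 of 18 T and NK cell, 0 of 7 B cell and 1 of 9 mast cell genes were tested. Of 18 T and NK cell genes with a probe, 10 were detected on no array and 0 of 7 tested passed in limma, with 0 higher and 1 lower at an unadjusted p under 0.05, which was Cd3d (-0.57 ± 0.22, adjusted p = 0.492). Their summed intensity was 491 to 612 in heterozygous and 477 to 577 in null samples. None of 7 B cell genes was detected on a null array. Of 16 granulocyte and monocyte genes 10 were detected on no array, and 0 of 3 tested passed in limma, with 1 higher at an unadjusted p under 0.05, Ltf (lactoferrin, 1.10 ± 0.26, adjusted p = 0.203). Their summed intensity, in which bright genes weigh most, was 166 to 265 in heterozygous and 307 to 464 in null samples. The mean deviation of these 16 genes was -0.03, 0.16 and 0.02 on null arrays 4, 5 and 6, and -0.07 to 0.05 on heterozygous arrays. Of 9 mast cell genes, which share Fcer1g with macrophages, 5 were detected on no array and summed intensity was 49.5 to 73.8 in heterozygous and 55.5 to 58.6 in null samples. The part of any cell type in the members' differences was not tested.

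**Figure D4:**
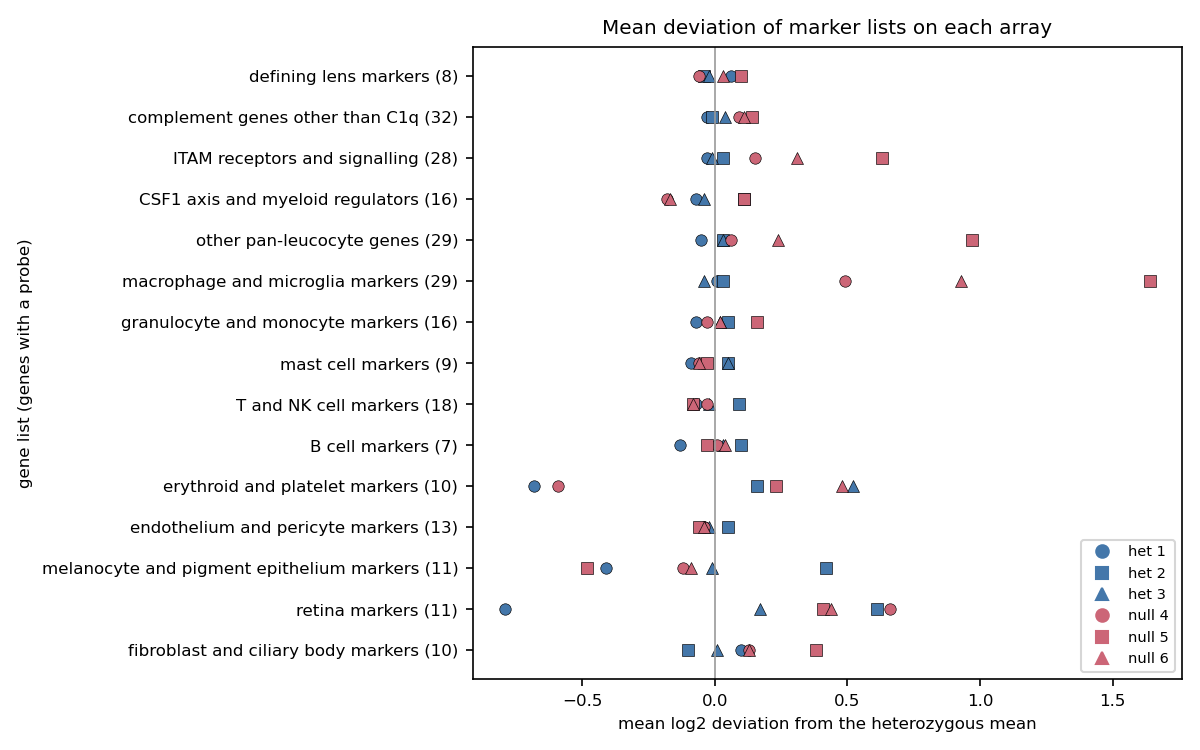
Mean deviation from the heterozygous level on the log2 scale (horizontal axis) of the genes of each list that have a probe, with 1 point per array, heterozygous in blue and null in red. The macrophage list reaches 0.49, 1.64 and 0.93 on null arrays 4, 5 and 6 and the ITAM list 0.15, 0.63 and 0.31, while erythroid, pigment cell and retina lists spread at least as widely among heterozygous as among null arrays.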

How the data were processed

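Total RNA of 6 lens samples, 3 per genotype, was isolated on Qiagen columns and measured as biotinylated cRNA on Illumina arrays, per the labels' protocols. The deposited raw table gives 1 intensity per probe and array, with medians from 60.5 to 71.3 and no value below 37.5. Each array also has a column of detection p-values, per the file headers. The raw columns name the group and not the replicate. The authors' series matrix holds rescaled intensities by replicate (medians of 64.8 to 66.2, method and centring unknown, scale linear), used as an alternative on the log2 scale.

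Intensities were corrected and normalized with neqc of limma 3.58.1 in R 4.3.3 (offset 16, negative controls inferred from detection p-values, quantile normalization). The offset makes dim probes differ less. Of 45281 probes, the 14902 detected (p under 0.05) on 3 or more of the 6 arrays entered lmFit and eBayes, two-sided, with Benjamini-Hochberg adjustment over all of them and a threshold of 0.05. This filter keeps probes detected in null samples alone, so counts among tested members are no support. Symbols came from the platform annotation (34885 probes with 1 gene, 18 with several, 10378 with none). The number of arrays limits precision: the smallest p that an exact permutation of 3 against 3 allows is 0.1.

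The members, the 15 gene lists, the rules and the left-out arrays were chosen with earlier results of these data known. Up to 4 genes per list with the smallest p in this fit and the 8 genes nearest to the mean profile of the 8 member probes detected on all null arrays were named. Named beside these were Tdrd7, lens genes, microglial and macrophage genes, Trem3, Btk, Blnk, Fcgr2b, C2, Mbl1, Irf5 and Il34. Alternatives were background correction, normalization, offset, filter, spread estimate, array weights, series matrix values, the replicate block, and each array left out. Whether samples of the same replicate number were paired was not settled. The erythroid and platelet list had mean deviations of -0.68, 0.16 and 0.52 on heterozygous arrays 1, 2 and 3. On null arrays 4, 5 and 6 they were -0.59, 0.23 and 0.48. The retina list did not follow such an order, with -0.79, 0.61 and 0.17 against 0.66, 0.41 and 0.44. Series matrix medians for replicates 1, 2 and 3 were 65.4, 66.2 and 64.8 in heterozygous and 65.7, 66.2 and 64.8 in null samples. A shared batch was not tested. Deviations of same-numbered samples correlated at -0.008, 0.251 and 0.571, and those of the other pairs at -0.379 to 0.075. The main fit has no pairing, since the names of the raw columns do not give the replicate. The series matrix values of replicates 1, 2 and 3 followed the raw arrays in order. For Laptm5 they were 80.8, 61.3 and 73.9 in heterozygous and 171, 896 and 438 in null samples. By this order heterozygous array 2 and null array 5 share replicate number 2. A replicate block was fitted to the series matrix values alone.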

Additional observations from a re-analysis of the deposited data

How the results depend on the processing

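Over 16 alternatives the differences of C1qb, C1qc, Fcer1g, Laptm5 and Cd53 stayed above 0, as did the second Aif1 probe over the 15 that tested it. The ranges were 1.72 to 3.71 for C1qb, 1.71 to 3.66 for C1qc, 1.73 to 3.81 for Fcer1g, 2.51 to 4.53 for Laptm5, 0.53 to 1.43 for Cd53 and 0.46 to 1.23 for Aif1. The brightest Aif1 probe changed sign after median scaling (0.16), which moved the median of the probes tested from 0.01 to 0.28, without heterozygous array 2 (0.14), and without that array and null array 5 (0.07), and Csf1r did without null array 5 (-0.12). With single arrays left out these probes ran from -0.33 to 0.14 and from -0.12 to 0.45. The cause was not tested.

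Members past the threshold numbered 2 with array weights (Laptm5 and Cd53), 3 without heterozygous array 2 and null array 5 (C1qb, C1qc and Laptm5), and 0 to 2 with single arrays left out. All probes past it numbered 14 with no background correction, 3 after median scaling, 11 with an offset of 50, 266 with array weights, 114 without heterozygous array 2 and null array 5, and 2 to 30 with single arrays left out. In limma 0 passed with no filter (2772 at an unadjusted p under 0.05), 0 on the series matrix values (1058) and 0 with the replicate block on them (1307). The replicate block left 0 members past the threshold, as without it, with 6 at an unadjusted p under 0.05 in both fits to the series matrix. In settings chosen after the data were seen, null values lay above all heterozygous values for 8 of the 17 member probes with all arrays (5.10% to 6.27% of all probes), 8 or 9 with single arrays left out (9.83% to 11.21%) and 9 without heterozygous array 2 and null array 5 (17.41%). At a detection p under 0.01 the members had 25 detections on null and 3 on heterozygous arrays. Dim signal limits Ptprc, Csf1r, C1qa and Tyrobp.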

Other observations

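Of the 12 genes beside the C1q genes and Laptm5 on chromosome 4, 6 were detected on no array and 4 on all 6. These are the 3 nearest coding genes with a probe on each side in GRCm38.p6. Of those at the C1q genes, Kdm1a, Tex46, Lactbl1, Epha8, Zbtb40 and Wnt4, only Kdm1a, a histone demethylase, was tested, and it was lower in all null samples (-0.28 ± 0.20, limma, adjusted p = 0.758). Beside Laptm5, the heparan sulphate proteoglycan Sdc3 was higher in all null samples (1.07 ± 0.31, adjusted p = 0.319), the phosphatase Ptpru differed by -0.07 ± 0.31 (adjusted p = 0.975) and Mecr by -0.19 ± 0.30 (adjusted p = 0.903), while Snrnp40, Nkain1 and Matn1 were detected on no array.

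Markers of blood and of tissues next to the lens varied among heterozygous samples as well. The platelet chemokine Pf4, which macrophages can also make, lay 0.37, 3.18 and 0.76 above its heterozygous mean on null arrays 4, 5 and 6 (1.44 ± 0.62, limma, adjusted p = 0.560), whereas the alpha-globin Hba-a1 was at -1.68, -0.32 and 1.09. The vascular receptor Tek was lower in all null samples (-0.63 ± 0.24, adjusted p = 0.496), and the pigment cell enzyme Tyrp1 differed by -0.69 ± 0.30 (adjusted p = 0.570). The mean deviation of 11 retina markers was 0.66, 0.41 and 0.44 on null arrays and from -0.79 to 0.61 on heterozygous arrays. Among them Rom1, of photoreceptor discs, differed by 0.64 ± 0.25 (adjusted p = 0.511). Acta2, smooth muscle actin, was higher in all null samples (0.60 ± 0.22, adjusted p = 0.476). In limma 0 genes of the blood, vessel, pigment cell, retina and fibroblast lists passed. At an unadjusted p under 0.05 there was 1 higher gene in each of the blood and retina lists, 1 lower in each of the vessel and pigment cell lists, and 1 in each direction in the fibroblast list.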
